A study of Mus musculus with 10 samples.

Results

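The genes described here are the receptors for thyroid hormone, corticosteroids and retinoids, together with enzymes that activate or inactivate thyroid hormone and 1 gene that responds to glucocorticoids. They are Thra, Thrb, Dio2, Dio3, Nr3c1, Nr3c2, Fkbp5, Rxra and Rxrg. They were taken by symbol from the 23337 genes of the authors' deposited comparison, and 9 of 9 symbols were listed. Of these, 8 had an adjusted p-value, and Dio3 had none. The samples were cardiomyocytes, the contracting cells of the heart, of wild-type mice injected on postnatal day 1 with 5e+08 viral genomes per gram and collected on postnatal day 14. The virus was AAV9-cTNT-GFP in 5 GFP samples and AAV9-cTNT-dnMKL1-GFP in 5 dnMKL1 samples, so GFP, the vector and the injection were shared by both groups. The cardiac troponin T promoter drives the transgene in cardiomyocytes, and cells were sorted by fluorescence after collagenase perfusion. dnMKL1 is a dominant-negative form of MKL1, a coactivator of serum response factor, and no uninjected group was analysed here. The labels number the samples of a group and do not say that each came from its own animal, so p-values measure the spread between these samples, which may be technical.

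Nuclear hormone receptors are transcription factors that change the activity of their target genes when a small lipophilic ligand binds them. Around birth and weaning, thyroid hormone and glucocorticoids drive the maturation of cardiomyocytes, and thyroid hormone switches myosin and calcium pump genes from the fetal to the adult pattern. The deiodinases set how much active hormone is present inside a cell, and retinoid X receptors are the dimer partners of thyroid hormone receptors and of many other receptors.

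Fold changes are given as dnMKL1 over GFP. Their direction was read from Mkl1, which the authors' deposited table lists at a log2 fold change of 9.80 (SE 0.15) and which stands for vector and endogenous reads together. Estimated library totals ran from 8803028 to 17123577 counts in the GFP group and from 8835136 to 17228616 in the dnMKL1 group. Values of single libraries were not analysed here, so a group is given by its implied mean, the level in normalized counts that the deposited average over all libraries and the fold change require, with a 95% interval from the deposited error. The summed means of the groups differed by -0.29 on the log2 scale, and scaling both groups to the same total adds 0.29 to every log2 fold change. Under the authors' scaling, the median log2 fold change of the 11922 genes averaging 10 or more normalized counts was 0.0041. Over all genes tested, 34.1% were called at an adjusted p-value under 0.05 (DESeq2 Wald test with Benjamini-Hochberg adjustment, in the authors' deposited table), 16.6% higher and 17.4% lower. With equal totals 47% were called, 40.4% higher and 6.6% lower. In bulk samples, fewer cells of a type and less RNA of its marker genes per cell cannot be told apart. Of 5 cardiomyocyte markers (Myh6, Tnnt2, Actc1, Ryr2 and Tnni3), 5 were lower, and their summed implied mean went from 1290290 to 665297 normalized counts. Of 6 endothelial markers, 0 were called and 0 had an unadjusted p-value under 0.05 by the same Wald test, with sums of 2410 and 2493. Of 6 fibroblast markers 3 were higher and 0 lower, with sums of 3093 and 4303. Mural markers were higher for 2 of 6, with sums of 7622 and 10693, and macrophage markers for 1 of 5 tested, with sums of 133 and 122. None of these markers was listed at 0.

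Among the members, 1 rose, 1 fell and 6 did not pass the test. Dio2, the deiodinase that converts thyroxine to active triiodothyronine, was 12.6-fold higher in dnMKL1 cells. Rxrg, the retinoid X receptor most typical of striated muscle, was 2.93-fold lower. The receptors Thra, Thrb, Nr3c1, Nr3c2 and Rxra and the co-chaperone gene Fkbp5 gave log2 fold changes between -0.20 and 0.42 in the authors' deposited table. The share called, 2 of 8 or 25%, was below the 34.1% of all genes tested, so these genes were not called more often than others. Dio2 and Rxrg changed by more than 2-fold, and a change of at least 2-fold with the same adjusted p-value was found in 6.7% of all genes tested. The members were chosen with earlier results of these data known, so this share is a description only.

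**Figure D1:**
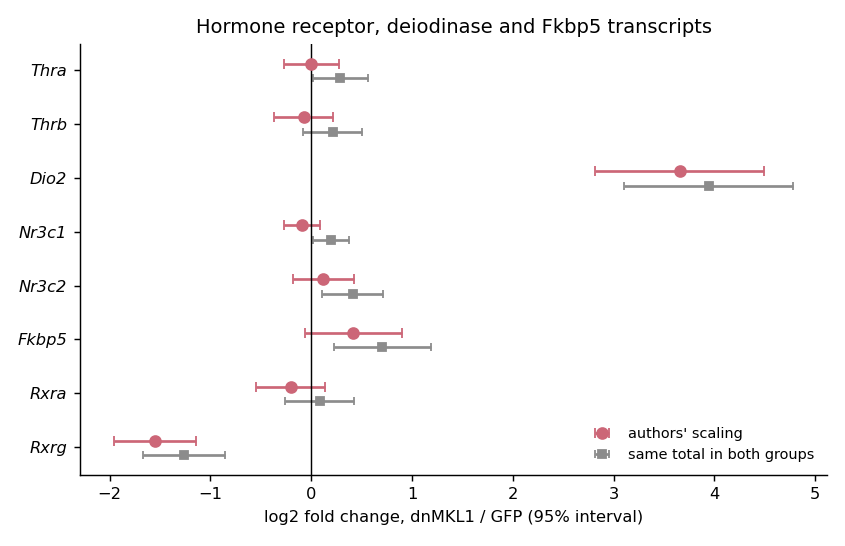
Log2 fold change of each tested member (x axis, dnMKL1 over GFP) with its 95% interval, under the authors' scaling (circles) and with both groups scaled to the same total (squares). Dio2 at 3.65 and Rxrg at -1.55 lie clear of 0 under both, whereas the other 6 intervals under the authors' scaling cross 0.

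**Figure D2:**
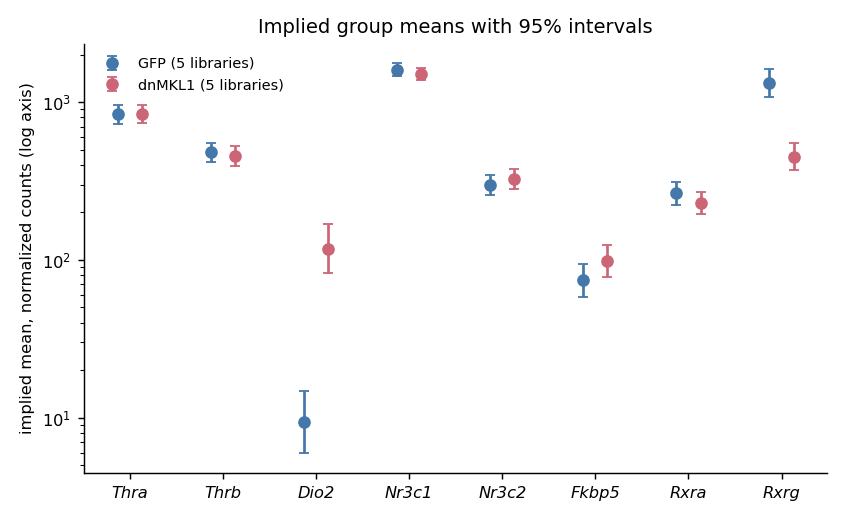
Implied group means of the tested members in normalized counts (log axis) with 95% intervals, for 5 GFP and 5 dnMKL1 libraries. Dio2 goes from 9.37 to 118 and Rxrg from 1324 to 452 with intervals that do not overlap, and the intervals of the other 6 genes overlap.

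Transcripts of both thyroid hormone receptor genes were present at levels that did not differ detectably between groups. Thra encodes the receptor that predominates in heart, and its implied mean was 836.0 normalized counts with GFP (95% interval 732 to 955) and 836.5 with dnMKL1 (732 to 955). The authors' deposited table put the log2 difference at 0.00084 (SE 0.14, adjusted p = 0.997). The 95% interval of the change ran from 0.829-fold to 1.21-fold under this scaling. Thrb, the other thyroid hormone receptor gene, had implied means of 480 (416 to 554) and 456 (395 to 526). It stood at -0.08 on the log2 scale (SE 0.15, adjusted p = 0.766 in the authors' deposited table), with an interval from 0.775-fold to 1.16-fold. With equal totals Thra stood at 0.29 and Thrb reversed to 0.21, neither past the threshold (adjusted p = 0.0734 and 0.244, Wald test). Thra (chr11:98740638-98769006, GRCm38, plus strand) ends across the 3′ end of Nr1d1, a clock repressor gene on the opposite strand. The shared exon stretch is 263 bases, 5.70% of the annotated exon bases of Thra, and the library kits named in the labels do not mark strand, so reads from it cannot be told apart. Nr1d1 itself was 1.25-fold lower (log2 fold change -0.32, SE 0.13, adjusted p = 0.0323 in the authors' deposited table), a call that ended with equal totals at -0.04. It was named because it overlaps Thra, outside the rule for named genes.

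The deiodinases were low in GFP cells, and Dio2 rose. Dio2 had an implied mean of 9.37 normalized counts with GFP (95% interval 5.92 to 14.8) and of 118 with dnMKL1 (82.4 to 169). At the depth of these libraries that corresponds to between 6.19 and 12.03 expected reads in a GFP library and between 95.5 and 186 in a dnMKL1 library, or about 45.9 and 657 reads over the groups. The GFP level is thus low but above a floor of 3 counts. The authors' deposited table gave a log2 fold change of 3.65 (SE 0.43, adjusted p = 1.18e-15), with a 95% interval from 7.03-fold to 22.5-fold. By size it ranked 9 among the rises of the 9870 tested genes averaging 50 or more normalized counts, a ranking that Mkl1 itself heads. Dio2 averaged 63.7 over both groups and met that minimum only through its dnMKL1 level. Genes as low as Dio2 in GFP cells that did not rise are left out, so the rank is a description only. The summed fibroblast and mural markers were higher by log2 ratios of 0.48 and 0.49, smaller than the 3.65 of Dio2, and their part in the result was not tested. The mural markers were uneven in the authors' deposited table. Cspg4 stood at 2.01, Myh11 at 0.73 and the abundant Abcc9, which cardiomyocytes also express, at 0.30. Rgs5 stood at 0.01, Kcnj8 at 0.03 and Pdgfrb at 0.18. Dio3, which inactivates thyroid hormone and is abundant in fetal tissue, was represented by 1 read in 1 GFP library, the one with a size factor of 1.28. No read in the dnMKL1 group allows up to 3 counts over that group, or 0.0494 CPM, so no fold is given. Dio1, the deiodinase of liver and kidney, was listed at 0. Dio2 lies at chr12:90724552-90738438 (GRCm38, minus strand), and an antisense transcript, Gm26512, shares 100 bases of its 5815 exon bases.

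The promoter of Dio2 is printed because this gene had the largest change among the members. The 250 bases before the RefSeq start (GRCm38.p6, chr12:90739039-90739288, minus strand, written 5′ to 3′ toward the start) are in lower case with motif matches in capitals.

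Dio2: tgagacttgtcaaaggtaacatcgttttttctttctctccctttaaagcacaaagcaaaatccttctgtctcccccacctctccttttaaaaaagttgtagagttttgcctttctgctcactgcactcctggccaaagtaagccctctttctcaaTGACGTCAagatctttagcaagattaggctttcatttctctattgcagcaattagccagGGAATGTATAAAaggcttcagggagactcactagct

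The first run of capitals is a cAMP response element (TGACGTCA), 95 to 88 bases upstream. The second joins an MCAT element (CATTCC, here on the opposite strand), 36 to 31 bases upstream, to a TATA box (TATAAA), 30 to 25 bases upstream. Over 32851 such windows of mouse genes, searched on both strands, a cAMP response element was found in 1.55%, an MCAT element in 12.6% and a TATA box in 12.4%. A CArG box, the element that serum response factor binds, was found in 1.47% of windows and in none of the 10 windows of the 7 members that have one. The GENCODE annotation starts Dio2 at 90738438, downstream of the RefSeq start, and the bases just after the RefSeq start are in no GENCODE transcript of the gene. Which start these cells used was not measured. A match is a description of the letters only.

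Corticosteroid receptors were likewise not detectably different. Nr3c1 encodes the glucocorticoid receptor and had the highest counts of the members, with implied means of 1609 (95% interval 1473 to 1759) and 1511 (1382 to 1651). On the log2 scale it stood at -0.09 (SE 0.09, adjusted p = 0.502, from the authors' deposited table), and the interval from 0.828-fold to 1.06-fold is the narrowest among the members. Nr3c2, the mineralocorticoid receptor, had implied means of 299 (258 to 346) and 325 (281 to 376), with a deposited log2 fold change of 0.12 (SE 0.15, adjusted p = 0.608 in the authors' deposited table). Fkbp5 encodes a co-chaperone that binds the glucocorticoid receptor complex and is itself raised by glucocorticoids. Its implied means were 74.0 (58.2 to 94.1) and 98.8 (78.3 to 125), a 1.34-fold difference with an interval from 0.956-fold to 1.87-fold. For Fkbp5 the authors' deposited table gave a log2 fold change of 0.42 (SE 0.25, adjusted p = 0.191). These readings depend on the scaling: with equal totals Nr3c2 was at 0.41 and Fkbp5 at 0.71, both past the threshold (adjusted p = 0.0185 and 0.0111, Wald test), and Nr3c1 turned to 0.20 without passing it (adjusted p = 0.067). With the median gene set to 0 instead, Nr3c2 was at 0.12 and Fkbp5 at 0.41, and neither passed (adjusted p = 0.623 and 0.197, Wald test).

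Retinoid X receptors moved unequally. Rxrg had implied means of 1324 normalized counts with GFP (95% interval 1086 to 1614) and 452 with dnMKL1 (370.0 to 553), or between 874 and 1701 expected reads in a GFP library and between 366 and 714 in a dnMKL1 library. The authors' deposited table gave Rxrg a log2 fold change of -1.55 (SE 0.21, adjusted p = 3.31e-12), and the interval of the fall ran from 2.21-fold to 3.88-fold. Rxrg ranked 31 among the falls of the same 9870 genes. The summed cardiomyocyte markers were lower by a log2 ratio of -0.96, and 1 of the 5, the cardiac actin gene Actc1, fell about as far as Rxrg (-1.55, SE 0.15, adjusted p = 7.67e-24 in the authors' deposited table). Actc1 was named with its value known, and the part of those markers in the result was not tested. Rxra, the form found in most tissues, had implied means of 264 (224 to 312) and 229 (194 to 271). The deposited log2 fold change of Rxra was -0.20 (SE 0.17, adjusted p = 0.402 in the authors' deposited table), and it reversed to 0.08 with equal totals. Rxrb, the third gene of the family, was 1.17-fold lower (-0.23, SE 0.09, adjusted p = 0.0424 in the authors' deposited table). That call ended when the adjustment ran over every gene with a p-value (adjusted p = 0.0523, Wald test) and turned to 0.06 with equal totals.

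Rxrg (chr1:167598384-167639623, GRCm38, plus strand) has 2 RefSeq starts, and the 250 bases before each are printed in the same way because this was the member that fell. They are at chr1:167598112-167598361 for the first start and at chr1:167618015-167618264 for the second, on the plus strand of GRCm38.p6.

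Rxrg start 1: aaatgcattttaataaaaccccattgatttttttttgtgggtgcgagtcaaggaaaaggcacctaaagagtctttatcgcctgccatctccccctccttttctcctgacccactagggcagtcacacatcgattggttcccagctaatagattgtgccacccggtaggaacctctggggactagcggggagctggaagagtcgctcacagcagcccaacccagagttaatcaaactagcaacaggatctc

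Rxrg start 2: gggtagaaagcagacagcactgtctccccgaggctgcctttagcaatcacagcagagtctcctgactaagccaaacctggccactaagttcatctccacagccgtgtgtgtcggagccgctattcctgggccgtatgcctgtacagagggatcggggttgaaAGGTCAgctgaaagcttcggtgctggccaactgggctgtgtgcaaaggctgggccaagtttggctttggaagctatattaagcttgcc

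The capitals mark a half-site bound by nuclear receptors (AGGTCA), 88 to 83 bases before the second start. This half-site is present in 14.0% of all windows. The window of the first start held none of the motifs searched, which besides those above were the cAMP response element half-site (TGACG, within the full element, in 17.8% of windows) and the glucocorticoid receptor half-site (AGAACA, in 16.1%). Upstream of the members that did not pass the test, AGGTCA matched before the second Rxra start and the first Thrb start, the cAMP response element half-site before the first Thrb start, and the glucocorticoid receptor half-site, the MCAT element and the TATA box before the second Thrb start. The window of Dio3 held a TATA box, and those of Nr3c2 and Fkbp5 and of the first Rxra start held none of these motifs. The bases just after the second Rxrg start are in no GENCODE transcript of the gene. Reads were not assigned to starts, so the fall of Rxrg cannot be placed at either one.

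**Figure D3:**
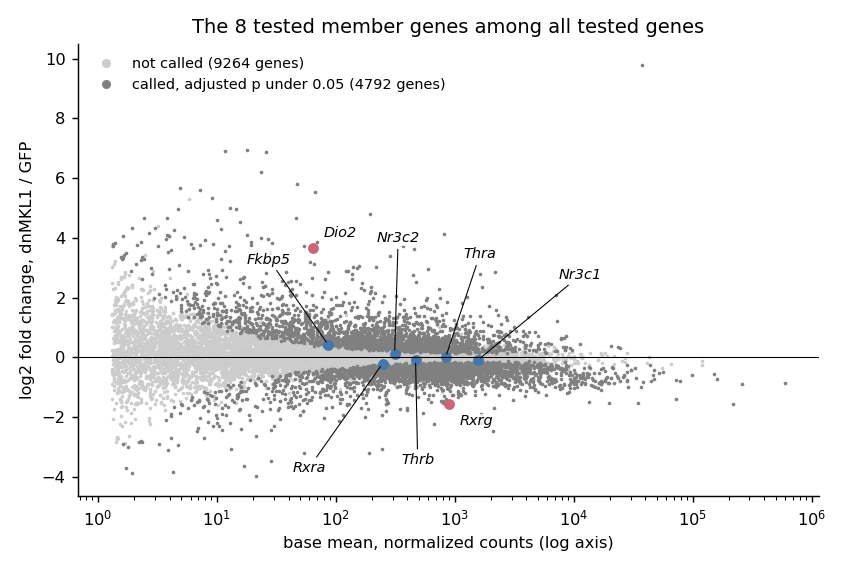
Log2 fold change (y axis) against base mean in normalized counts (log x axis) for all genes tested, called in dark grey and not called in light grey. Dio2 and Rxrg (red) stand among the outer genes of similar abundance, and the other 6 members (blue) lie in the band around 0.

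The members also differed in how much the libraries of a group varied. The coefficient of variation between libraries beyond counting error, recovered from the deposited error of each gene, which DESeq2 draws toward that of genes of similar level, was 9.79% for Nr3c1, 14.8% for Thra, 15.7% for Thrb and 15.8% for Nr3c2. It was 17.9% for Rxra, 22.4% for Rxrg, 24.6% for Fkbp5 and 39.9% for Dio2. Among the 6516 genes averaging 100 to 1000 counts the median was 11.8%, with quartiles of 9.50% and 15.5%, so Thrb, Nr3c2, Rxra and Rxrg lay above the upper quartile. Among the 3276 genes averaging 10 to 100 the median was 25.6% with an upper quartile of 34.3%, which Dio2 exceeded and Fkbp5 did not.

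Levels between genes were compared as implied mean per kilobase of the longest annotated transcript. In GFP cells Rxrg was at 627 normalized counts per kilobase (95% interval 515 to 765), the second highest of 42 nuclear receptor genes with a fold change, after Nr4a1 at 989 (672 to 1457), an early response receptor. The intervals of these neighbours overlap, as do those of Rxrg and Esrra, the estrogen-related receptor of mitochondrial genes, at 545 (497 to 597). Thra ranked 5 at 341 (298 to 390) and Nr3c1 ranked 10 at 250 (229 to 273), while Thrb at 77.4 (67.0 to 89.4), Rxra at 53.9 (45.6 to 63.6) and Nr3c2 at 50.5 (43.6 to 58.6) were lower, the last pair with overlapping intervals. In dnMKL1 cells Rxrg was at 214 per kilobase (175 to 262) and ranked 10. Of the summed level of the 3 retinoid X receptor genes, Rxrg made up 66.5% with GFP and 44.2% with dnMKL1, and Rxrb 27.8% and 46.2%. Thra made up 81.5% and 82.3% of the summed level of both thyroid hormone receptor genes. Counts per gene pool the 9 annotated transcripts of Thra, so this is a share of transcripts and not of receptor that binds the hormone. Dio2 was at 1.61 per kilobase with GFP and 20.3 with dnMKL1, and Fkbp5 at 19.2 and 25.6. These shares depend on the annotated length: with the median transcript Rxrg made up 44.1% and 23.9% and ranked 10 with GFP, and Rxrb had the largest share, 47.7% with GFP and 64.8% with dnMKL1. With that length Thra made up 67.8% of the thyroid hormone receptor level with GFP, and the GFP levels per kilobase of Thrb, Thra and Nr3c1 were 607, 1278 and 851. Such shares carry no error of their own.

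**Figure D4:**
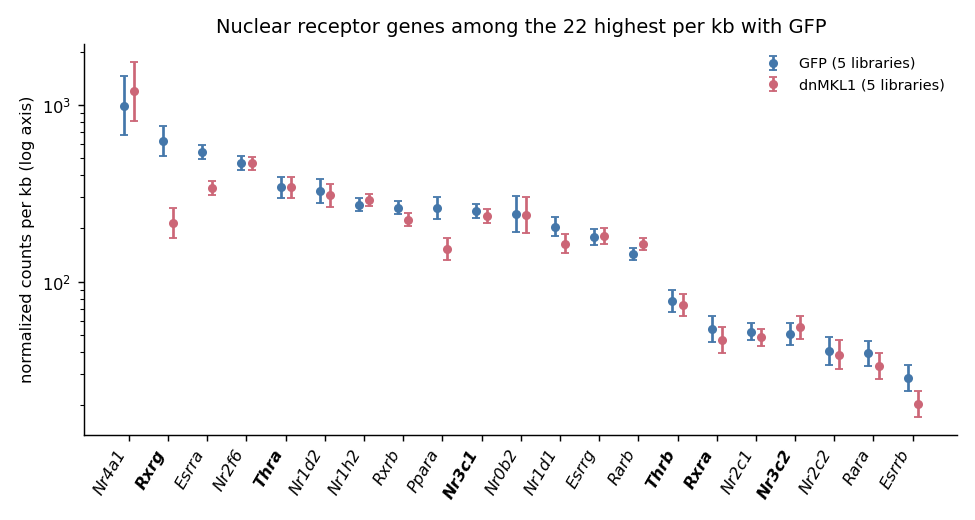
Implied mean per kilobase of the longest transcript (log axis) with 95% intervals for nuclear receptor genes among the 22 highest in GFP cells (1 is not shown), members in bold. Rxrg drops from 627 to 214 per kilobase, and Thra, Nr3c1, Thrb, Rxra and Nr3c2 keep overlapping intervals.

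The lists of related genes that follow are read against the share of all genes tested, 34.1% called, 16.6% higher and 17.4% lower, or 40.4% higher and 6.6% lower with equal totals. Of 8 genes of thyroid hormone transport and metabolism, which include Dio1 and the hormone-binding protein gene Crym, 6 were tested, and 2 of them were higher and 1 lower (50%), and the median log2 fold change was 0.57, against 0.02 over all genes tested. Slc7a5, which forms an amino acid transporter that also carries thyroid hormone, rose 4.43-fold, from an implied mean of 71.3 to 316 normalized counts. The authors' deposited table gave it a log2 fold change of 2.15 (SE 0.32, adjusted p = 4.66e-10). Slc7a8, a related transporter subunit, rose 2.64-fold (1.40, SE 0.35, adjusted p = 4.94e-04 in the authors' deposited table). Slc3a2, the heavy chain that both pair with, was just outside the threshold at 0.62 (SE 0.26, adjusted p = 0.0504 in the authors' deposited table). Slc16a10, a monocarboxylate-family transporter of aromatic amino acids and thyroid hormone, fell 1.44-fold (-0.52, SE 0.15, adjusted p = 0.00236 in the authors' deposited table). With equal totals 5 were higher and 0 lower, and Slc16a10 was no longer called (adjusted p = 0.195, Wald test).

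Genes that thyroid hormone raises in the heart were mostly lower where they passed the test. Of 18 genes, 9 were lower, 1 higher and 8 did not pass (55.6% called), with a median log2 fold change of -0.45. Lower genes included Atp2a2, the calcium pump of the sarcoplasmic reticulum, at -0.90 (SE 0.10, adjusted p = 1.27e-18), and Kcnd2, a potassium channel gene, at -1.73 (SE 0.21, adjusted p = 2.92e-15, both in the authors' deposited table). Myh6, the adult fast myosin, was at -0.87 (SE 0.11, adjusted p = 1.10e-12) and Slc2a4, the insulin-responsive glucose transporter, at -0.89 (SE 0.14, adjusted p = 8.15e-09, both in the authors' deposited table). Hcn4, a pacemaker channel, was the 1 gene that rose (0.52, SE 0.20, adjusted p = 0.0355 in the authors' deposited table), and it was named after its value was seen. Abundance bears on these counts. Of the 18, 9 averaged 1000 normalized counts or more and 6 of those were lower, whereas 42.1% of all tested genes that abundant were lower. Of the 9 that averaged under 1000, 3 were lower and 1 higher, where 17.4% of all genes tested at any level were lower. With equal totals 8 were lower and 4 higher. Myh6 and Ryr2 of this list are also cardiomyocyte markers, whose summed level was lower by a log2 ratio of -0.96, and their part in the result was not tested. Genes that respond to thyroid hormone in many tissues did not pass: Klf9 gave -0.09 (SE 0.12), Hr -0.01 (SE 0.26) and Thrsp -0.28 (SE 0.26) in the authors' deposited table. With equal totals they turned to 0.19, 0.27 and 0.0053 and still did not pass. These genes too were named with their values known. Ucp2, the most abundant gene of the list not called, was at 0.16 (SE 0.14, adjusted p = 0.419 in the authors' deposited table).

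Of 7 genes that thyroid hormone lowers in the heart, 6 were tested, 1 rose and 2 fell. Myh7, a myosin gene, had no adjusted p-value although it averaged 4951 normalized counts, and the sources used here do not say why. Its log2 fold change was 0.92 (SE 0.90) in the authors' deposited table. Myh7 was named outside the rule for named genes, with its value known. Tnni1, the slow skeletal troponin I of the fetal heart, rose 2.65-fold (1.40, SE 0.48, adjusted p = 0.0125), and Adcy5, a cardiac adenylyl cyclase, fell 1.82-fold (-0.87, SE 0.26, adjusted p = 0.00379, both in the authors' deposited table). Slc8a1, the sodium-calcium exchanger, fell 1.36-fold (-0.45, SE 0.16, adjusted p = 0.0174 in the authors' deposited table). With equal totals 2 were higher and 0 lower, and neither Adcy5 nor Slc8a1 was called. Pln, the inhibitor of the calcium pump, was at -0.21 (SE 0.11, adjusted p = 0.138 in the authors' deposited table) and turned to 0.08 with equal totals.

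Glucocorticoid-responsive genes other than Fkbp5 were higher more often than lower. Of 24 genes, 23 were tested, 11 were higher, 2 lower and 10 did not pass (56.5% called), with a median log2 fold change of 0.32. Of all genes tested, 16.6% were higher and 17.4% lower. The 4 with the smallest adjusted p-values are also known to rise with cell stress or DNA damage. Cdkn1a, a cell cycle inhibitor, rose 6.98-fold (2.80, SE 0.24, adjusted p = 2.91e-29) and Errfi1, an inhibitor of EGF receptor signalling, 1.75-fold (0.80, SE 0.16, adjusted p = 5.75e-06, both in the authors' deposited table). Ddit4, an inhibitor of mTOR signalling, rose 1.95-fold (0.96, SE 0.22, adjusted p = 1.03e-04) and Gadd45b, a stress sensor, 2.06-fold (1.04, SE 0.24, adjusted p = 1.12e-04, both in the authors' deposited table). Among genes closely tied to the receptor, Tsc22d3 rose 1.21-fold (0.27, SE 0.08, adjusted p = 0.00521) and Per1 1.89-fold (0.91, SE 0.32, adjusted p = 0.0143), while Zbtb16 was at -0.07 (SE 0.14, adjusted p = 0.776, all in the authors' deposited table). Sgk1 at 0.32 (SE 0.26), Klf9 at -0.09 (SE 0.12) and Klf15 at -0.18 (SE 0.19) did not pass either. Pdk4 was called lower at -0.85 (SE 0.25, adjusted p = 0.00262 in the authors' deposited table). All of these were named with their values known. Dusp1, the most abundant gene not called, was at 0.22 (SE 0.39, adjusted p = 0.730 in the authors' deposited table). With equal totals 13 were higher and 1 lower, where 40.4% of all genes tested were higher and 6.6% lower. Zbtb16 then turned to 0.22 and Klf15 to 0.11, and Sgk1 passed at 0.61 (adjusted p = 0.0392, Wald test).

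The chaperones that hold steroid receptors ready for ligand split by gene. Of 14 genes of this list, which includes corticosteroid-converting enzymes, 13 were tested, 2 were higher and 4 lower (46.2%), with a median of -0.17. Hsp90aa1, the stress-inducible HSP90, rose 2.18-fold (1.12, SE 0.11, adjusted p = 1.84e-21) and Dnajb1, an HSP70 co-chaperone, 3.21-fold (1.68, SE 0.23, adjusted p = 1.93e-11, both in the authors' deposited table). Fkbp4, the co-chaperone that exchanges with the Fkbp5 product in receptor complexes, fell 2.13-fold from an implied mean of 6375 to 2996 normalized counts (-1.09, SE 0.19, adjusted p = 6.71e-08 in the authors' deposited table). Bag1 fell 1.36-fold (-0.44, SE 0.09, adjusted p = 6.77e-06 in the authors' deposited table). Hsp90ab1, the constitutive HSP90, was at 0.12 (SE 0.08, adjusted p = 0.218 in the authors' deposited table). With equal totals 4 genes of the list were higher and 1 lower, and Bag1 was not called.

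Of 17 retinoid receptors, enzymes and binding proteins outside the members, 12 were tested, 1 was higher and 2 lower (25%), and 9 did not pass, with a median of 0.20. Dhrs3, which reduces retinaldehyde back to retinol, fell 1.65-fold (-0.72, SE 0.15, adjusted p = 1.44e-05), and Rdh10, which oxidises retinol to retinaldehyde, rose 1.504-fold (0.59, SE 0.15, adjusted p = 4.34e-04, both in the authors' deposited table). The second gene called lower was Rxrb, and with equal totals 3 were higher and 1 lower. Tgm2, the most abundant gene not called, was at 0.18 (SE 0.12, adjusted p = 0.274 in the authors' deposited table). Among 9 receptors that pair with retinoid X receptors, 7 were tested. Ppara, the receptor of fatty acid oxidation genes, fell 1.72-fold (-0.78, SE 0.15, adjusted p = 1.81e-06), and Pparg, its adipose counterpart, rose 2.08-fold from a low level (1.05, SE 0.30, adjusted p = 0.00190, both in the authors' deposited table). The other 5 did not pass, Nr1h2 being the most abundant at 0.09 (SE 0.09, adjusted p = 0.485 in the authors' deposited table). With equal totals 2 were higher and 1 lower.

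Coregulators, which receptors recruit to activate or silence genes, gave 2 higher and 4 lower of 14 (42.9%, against 34.1% of all genes tested), with a median of -0.10. Tbl1x, a corepressor subunit, rose 1.60-fold (0.68, SE 0.12, adjusted p = 7.93e-07), and Med1, a Mediator subunit that binds liganded receptors, fell 1.46-fold (-0.55, SE 0.15, adjusted p = 0.00128, both in the authors' deposited table). Nrip1, a corepressor, was at -0.33 (SE 0.11, adjusted p = 0.0139), and Hdac3, the deacetylase of the same corepressor complex as Tbl1x, at -0.20 (SE 0.07, adjusted p = 0.0184, both in the authors' deposited table). With equal totals 5 were higher and 0 lower, so that the falls of Med1, Nrip1 and Hdac3 rest on the authors' scaling. Tbl1xr1 was at -0.17 (SE 0.12, adjusted p = 0.268 in the authors' deposited table) and turned to 0.11 with equal totals.

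The remaining nuclear receptors were compared to place Rxrg in its superfamily. Of 29 further receptors, 19 were tested, 2 were higher and 5 lower, with a median of -0.07, and 5 were listed at 0. Esrra fell 1.62-fold (-0.69, SE 0.10, adjusted p = 1.45e-11 in the authors' deposited table). Rorb rose 2.15-fold (1.10, SE 0.23, adjusted p = 1.56e-05) and Nr4a2, an early response receptor, 4.72-fold (2.24, SE 0.65, adjusted p = 0.00292, both in the authors' deposited table). Nr4a1 was at 0.27 (SE 0.40, adjusted p = 0.676 in the authors' deposited table). Over all 48 receptor genes, 36 were tested and 11 called, or 30.6%, against 34.1% of all genes tested. Log2 fold changes of the 36 ran from -1.55 for Rxrg to 2.24 for Nr4a2. With equal totals 4 of these 29 were higher and 2 lower.

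**Figure D5:**
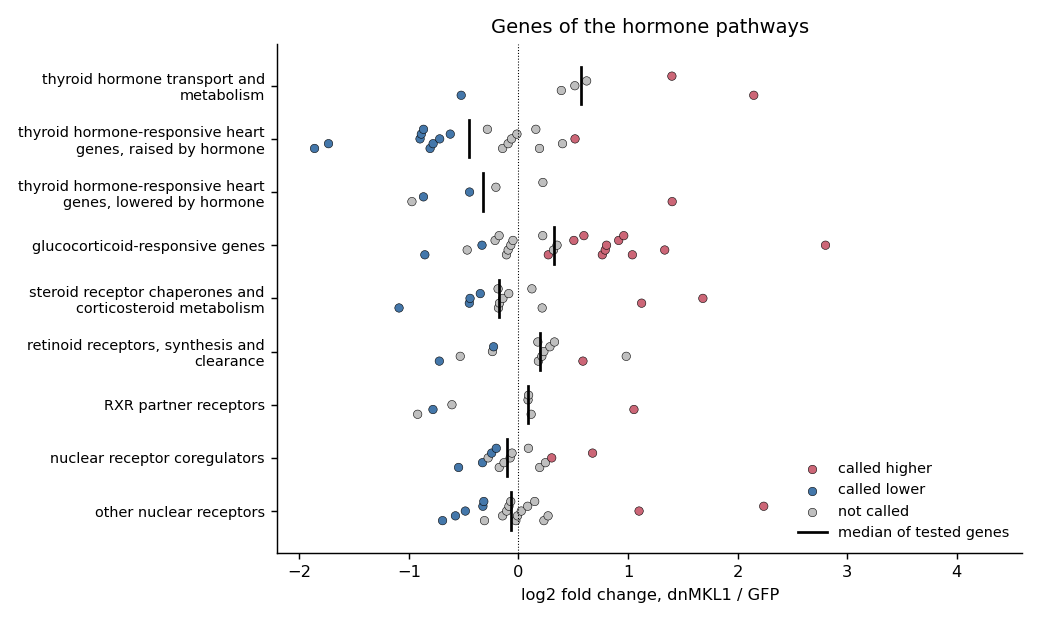
Log2 fold change (x axis) of each tested gene in the 9 lists of hormone pathway genes, coloured by the adjusted p-value under 0.05, with the list median as a black bar. Lower genes lead among those that thyroid hormone raises (9 against 1), and higher genes lead among glucocorticoid-responsive genes (11 against 2).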

How the data were processed

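RNA of sorted cardiomyocytes was amplified and sequenced per the labels' protocols. Reads were aligned to mm10 with STAR 2.5.3a and counted per gene with featureCounts (Subread 1.5.2), per the submitters' processing notes. Which annotation was counted is not given in the sources used here. The authors deposited 1 comparison, whose headers are those DESeq2 writes: the base mean (a signal in normalized counts), the log2 fold change and its SE, the Wald statistic (a score), the p-value and the adjusted p-value. No values per library were analysed here, so the deposited Wald test was used as it stands. Its Benjamini-Hochberg adjustment covers 14056 genes, the least abundant of which averages 1.31 normalized counts. Each group has 5 samples, grouped by title.

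Implied means follow from base mean and fold change, taking 2 equal groups. Size factors came from genes with 1 read in 1 library, and library totals from size factors and implied means. The coefficient of variation between libraries is the root of the negative binomial dispersion at which the deposited SE is obtained. The steps were tested on simulated data. Intervals are normal 95% intervals on the log scale. Reads carry no molecular identifiers, so limits from a count of 0 cover counting error only. Transcript lengths and exons came from GENCODE M21 on GRCm38, the assembly of mm10, and promoter windows from RefSeq (7 of 9 members matched). Python 3.11.15, scipy 1.17.1 and pandas 2.3.3 were used.

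The members and lists were chosen with earlier results of these data known, and no set test was run. Named are the members and, per list, the 4 called genes with the smallest adjusted p-value and the most abundant gene not called, with other names marked as such or taken from the cell type marker lists. 1 gene that the rule names is not reported here. The macrophage marker Adgre1 is listed under its older symbol Emr1.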

Additional observations from a re-analysis of the deposited data

How the results depend on the processing

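No paired analysis was possible because only the authors' finished comparison was used, without single libraries. The planned fits that leave out a library were not run for the same reason, so the weight of any 1 library in Dio2 or Rxrg is not known. Dio2 and Rxrg kept their direction and call under each alternative that covers them, except that Dio2 has a base mean under 100 and drops out with a minimum of 100, which left 1 member called. With equal totals 4 members were called, since Fkbp5 and Nr3c2 were added, and 5 of the thyroid hormone transport genes. That scaling adds 0.29 to every gene by construction. This was followed for 62 named genes, which leave out Mkl1, Myh7, Crym, Sgk1, Klf15, Pdk4 and the markers Myh11, Tnnt2, Ryr2, Tnni3 and Adgre1. Of the 62, equal totals reversed 11, none of them called then. They included Thrb to 0.21, Nr3c1 to 0.20, Rxra to 0.083, Pln to 0.083, Rxrb to 0.062 and Hdac3 to 0.086. The others were Tbl1xr1 to 0.11, Klf9 to 0.19, Hr to 0.27, Thrsp to 0.0053 and Zbtb16 to 0.22. The same scaling made 8 stronger and 7 weaker. Median-centring reversed Thra to -0.0032. A threshold of 0.01 left 1 of the genes lowered by thyroid hormone, 2 coregulators and 4 other nuclear receptors. Asking also for an absolute change of 0.5 (log2) left 3 chaperone genes, 2 coregulators and 4 other nuclear receptors, and a base mean of at least 100 left 1 partner receptor. Fewer genes can pass with the stricter threshold or the minimum change. The base mean filter is adjusted anew and can also add calls, as for the coregulators, which went from 6 to 7. Lengths from the median transcript moved the level per kilobase of 7 of 9 members. That count includes Dio3 by default, since Dio3 has no coefficient of variation to judge the shift against. Depth limits Dio3, with 1 read in all.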
